A study of Mus musculus with 17 samples.

Results

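The comparison described here asks what the PRCC-TFE3 fusion changes in the mouse kidney when both HIF alpha genes are deleted. It sets 3 kidneys of the PRCC-TFE3KI/HIF1a/HIF2a DKO group (DKO) against 4 kidneys of the Cre(-) group, chosen by their sample titles, which are 7 of the 17 mRNA libraries of the series. All 17 mice carry the lsl-PRCC-TFE3 KI allele, in which a loxP-flanked stop keeps the fusion silent until Cre recombinase removes it. DKO mice carry this allele with HIF1a f/f, HIF2a f/f and KSP-Cre(+). Cre(-) mice carry it without Cre: replicates 1 and 2 also carry HIF1a f/f, and replicates 3 and 4 carry no floxed HIF allele. The 3 mice of the PRCC-TFE3KI group (KI), with KSP-Cre(+) and both HIF alpha genes intact, serve as a second reference. KSP-Cre is driven by the promoter of Cadherin 16, a gene of the kidney's tubular epithelium, so that fibroblasts, vessels, blood cells and other cells keep Hif1a and Epas1 and do not make the fusion. No control carries a HIF2a flox allele, no group has the HIF deletions without the fusion, and the labels do not state sex. Library numbers, whose meaning the labels do not give, do not overlap between these 3 groups (5 to 8 in Cre(-), 11, 15 and 16 in DKO, 17, 20 and 21 in KI), so an effect that went with the numbers would look the same as an effect of genotype.

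The values are expected counts per transcript, estimated by the authors, summed here to genes. The Cre(-) libraries totalled 18547274, 22641506, 18797525 and 19841142 counts, the DKO libraries 18635282, 17347474 and 18496076, and the KI libraries 16504419, 17851649 and 18173319. Levels are given as CPM (counts per 1000000 counts) on library sizes scaled by the trimmed mean of M-values (TMM), in the order of the replicate numbers. On that scale 3 counts, taken as the smallest detectable amount in a library, equal 0.161 to 0.206 CPM in Cre(-) and 0.146 to 0.158 CPM in DKO, which covers counting error only. Of 35971 genes, 17011 (47.3%) had enough counts to be tested with edgeR's quasi-likelihood test and Benjamini-Hochberg adjustment. Differences are log2 fold changes, positive where DKO was higher, and a gene passed at an adjusted p under 0.05.

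The libraries differed in composition. Mitochondrially encoded genes took 21.48%, 19.14%, 22.17% and 23.12% of the counts in Cre(-) kidneys and 8.74%, 11.18% and 11.15% in DKO kidneys, and their 13 tested members were all lower in DKO (median log2 fold change -1.46). TMM scaling left the median difference over all genes tested at 0.02. The authors' TPM values, normalized to a fixed sum over transcripts, moved that median to 0.45 on log2(TPM + 1), so a change in TPM is read relative to 0.45 below. Among DKO kidneys, replicate 1 lay nearest to KI, with a median absolute log2 difference of 0.195 to 0.288 from the KI libraries, against 0.254 to 0.333 for replicates 2 and 3.

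TFE3, MITF, TFEB and TFEC form the MiT/TFE family of transcription factors, which bind E-box motifs in promoters of genes for lysosomes, autophagy and, in pigment cells, melanosomes. In PRCC-TFE3 renal cell carcinoma a translocation joins TFE3 to PRCC, and the fusion protein stays in the nucleus. HIF1α (Hif1a) and HIF2α (Epas1) are oxygen-regulated subunits that pair with ARNT and bind a short core motif near genes of glycolysis, vessel growth and erythropoietin. Prolyl hydroxylases mark them in oxygen, and the von Hippel-Lindau protein (VHL) then sends them for breakdown.

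The genes that define the model come first. Hif1a stood at 102, 128, 118 and 118 CPM in Cre(-) and 188, 174 and 203 CPM in DKO, so every DKO kidney was above every Cre(-) kidney (log2 fold change 0.69, SE 0.13, adjusted p = 0.000275). Its exons overlap those of Gm15283 and Gm49321 in the annotation. Epas1 was 196, 205, 243 and 257 CPM in Cre(-) and 155, 165 and 158 CPM in DKO. The groups did not overlap, and the change of -0.50 (SE 0.09, adjusted p = 0.000185) turned slightly positive in TPM before centring on the median of all genes. Both genes are counted over their whole length and in all cells, which does not test the floxed exons. Cdh16, whose promoter drives Cre, measured 1139, 1119, 1161 and 1221 CPM in Cre(-) and 784, 781 and 812 CPM in DKO, lower in each DKO kidney (-0.55, adjusted p = 8.97e-05). Cdh16 did not pass on log2(TPM + 1) (-0.06), and after centring it did (-0.51). In bulk RNA, fewer cells of a type and less RNA per cell cannot be told apart, here and in what follows.

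Tfe3 (chromosome X from 7762560 to 7775202, ENSMUSG00000000134.17) was 36.2, 34.3, 36.7 and 37.1 CPM in Cre(-) and 51.6, 52.6 and 46.8 CPM in DKO, without overlap (0.48, SE 0.08, adjusted p = 8.10e-05). Prcc was 42.2, 37.4, 39.3 and 40.7 CPM in Cre(-) and 41.7, 38.3 and 38.4 CPM in DKO. The Prcc groups overlapped (-0.02, adjusted p = 0.874), and the sign of this difference changed in TPM (0.51, near the shift of all genes), without Cre(-) replicate 1 (adjusted p = 0.916), without DKO replicate 2 (0.954) and without DKO replicate 3 (0.960). The deposited transcripts are those of the mouse annotation and hold no entry for the fusion, so these values do not measure it separately. Whether reads of the fusion were counted as Tfe3 or Prcc was not tested. Among the other family members, Mitf fell from 37.5, 34.9, 39.7 and 31.6 CPM to 16.9, 24.3 and 22.9 CPM (-0.75, adjusted p = 0.000380). Tfeb and Tfec did not pass, although Tfec, whose sign turns in TPM before centring, passed as lower without Cre(-) replicate 4 (adjusted p = 0.0479). Of the 5 genes in the list of MiT/TFE factors and Prcc, 1 was higher, 1 lower (2 without that replicate) and 3 did not pass, which is 20.0% each way against 30.4% higher and 27.9% lower over all genes tested. The list had a median of -0.02 that moved to 0.51 in TPM before centring.

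**Figure D1:**
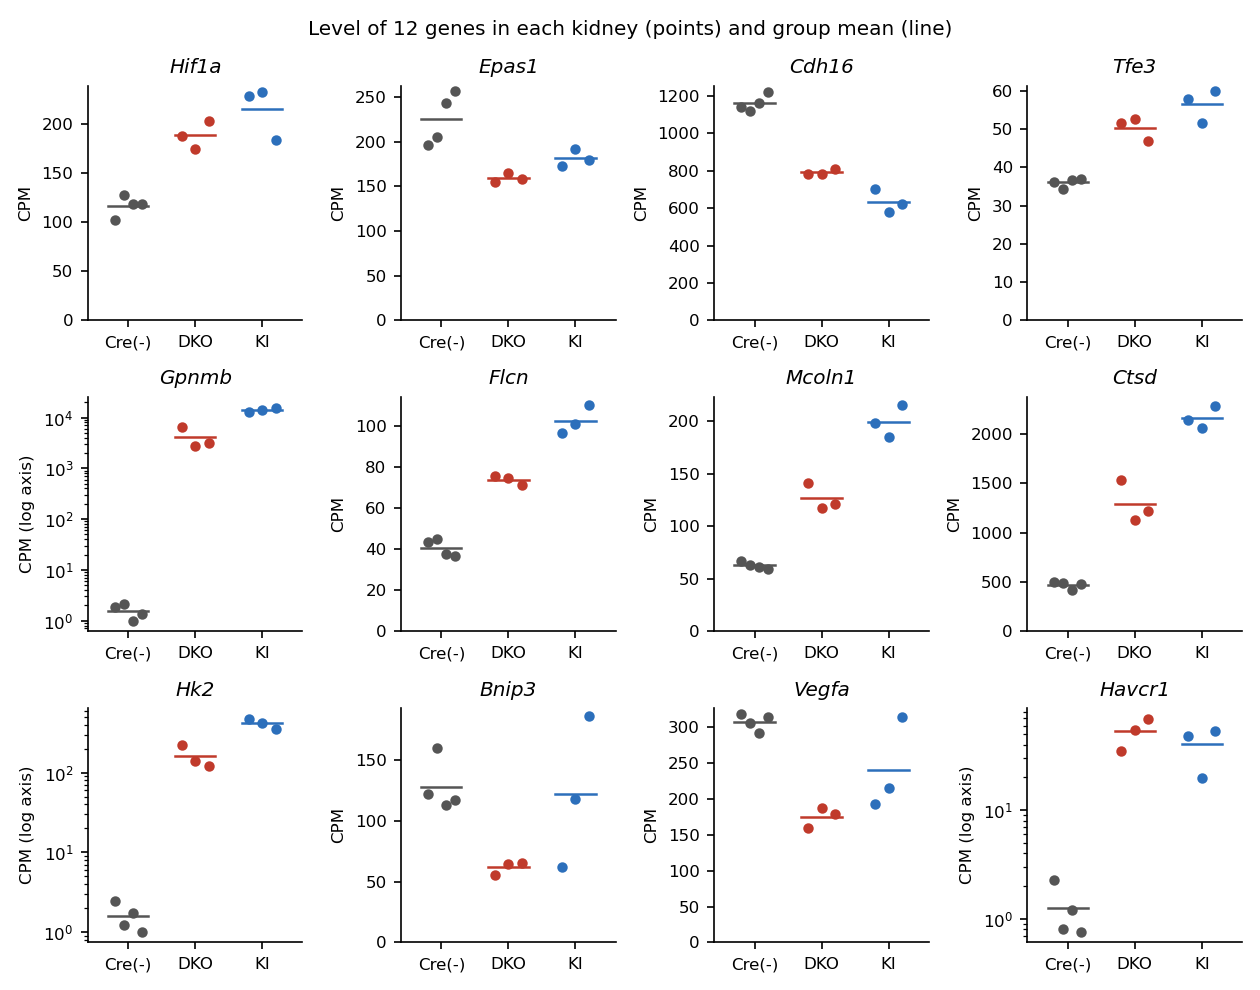
Level in CPM of 12 genes in each Cre(-), DKO and KI kidney (points) with the group mean (line). The axis is logarithmic for Gpnmb, Hk2 and Havcr1 and starts at 0 for the others. Hif1a is higher and Epas1 lower in DKO than in Cre(-) on TMM-scaled CPM, Epas1 turning slightly positive in TPM before centring. Gpnmb rises from 0.993 to 2.14 CPM in Cre(-) to 2806 to 6415 CPM in DKO.

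Of the remaining genes of the HIF system, Arnt2, a neural relative of ARNT, rose from 50.7, 51.8, 48.7 and 39.2 CPM to 101, 89.2 and 86.5 CPM (0.95, adjusted p = 7.06e-06). Vhl rose from 15.3, 18.9, 18.5 and 15.5 CPM to 32.6, 27.7 and 28.8 CPM (0.80, adjusted p = 4.23e-05), and Egln1, the main prolyl hydroxylase, fell from 89.1, 83.3, 77.8 and 81.5 CPM to 47.5, 58.0 and 48.2 CPM (-0.70, adjusted p = 2.95e-05). None of these 3 genes overlapped between the groups. Over the list of 11 HIF subunits and oxygen sensors, 3 genes were higher, 2 were lower and 6 did not pass. These 27.3% and 18.2% lie below the shares over all genes tested, 30.4% and 27.9%. The list had a median of 0.00 against 0.02 over all genes, and in TPM before centring 8 were higher and 0 lower. Hif3a was among those that did not pass (adjusted p = 0.0658), and passed as lower without Cre(-) replicate 1 (0.0391) or DKO replicate 3 (0.0319).

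Across all genes tested, 9916 (58.3%) differed between DKO and Cre(-), 5167 of them (30.4%) higher in DKO and 4749 (27.9%) lower. A log2 fold change of at least 1 was reached by 2590 of the higher and 1842 of the lower genes. Of the higher genes 4829, and of the lower 4446, had no overlap between the 3 DKO and the 4 Cre(-) kidneys. Higher genes were 52.1% of those that passed on TMM-scaled counts. They were 84.4% on log2(TPM + 1) and 49.4% on the same values centred on the median of all genes. Leaving out any 1 of the 7 libraries gave between 4544 and 4969 higher and between 4161 and 4642 lower genes. More than 1 gene in 2 passed, so counts for gene lists are read against these shares.

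**Figure D2:**
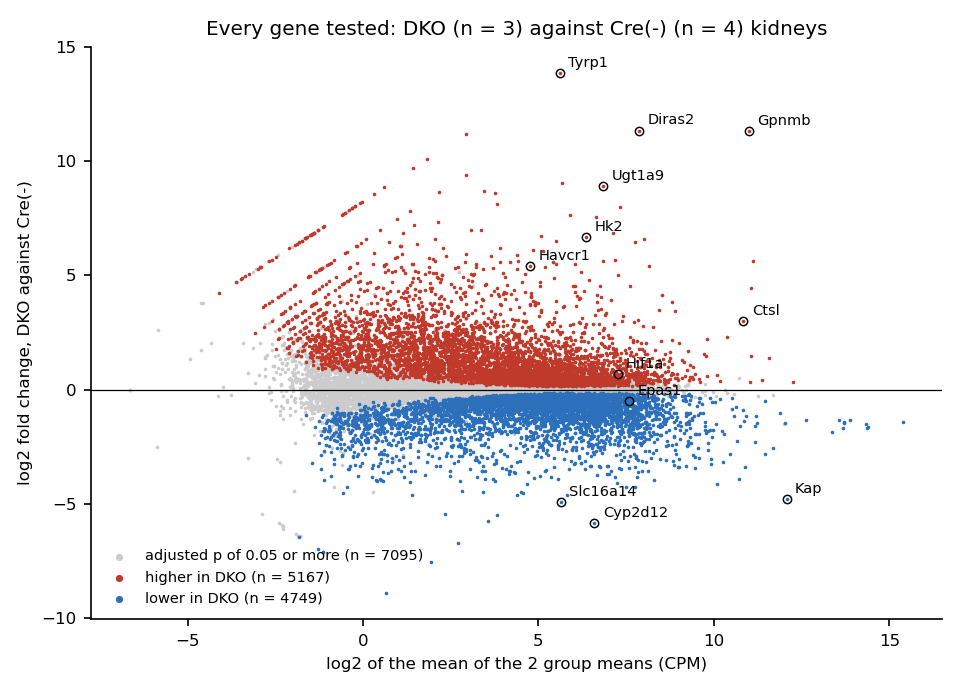
Log2 fold change of DKO against Cre(-) for each of the 17011 genes tested, against the log2 of the mean of the 2 group means in CPM, with genes that passed coloured by direction. The 5167 higher and 4749 lower genes spread over most of the range of levels, and Tyrp1, Diras2, Gpnmb and Ugt1a9 at the top were under 3 CPM in each Cre(-) kidney.

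The genes with the largest rises, chosen by fold change among those with at least 1 TPM in either group and no overlap, were close to absent in Cre(-) kidneys. Gpnmb, a glycoprotein of melanosomes and lysosomes (chromosome 6 from 49036546 to 49070929, ENSMUSG00000029816.10), was 1.85, 2.14, 0.993 and 1.33 CPM in Cre(-) and 6415, 2806 and 3113 CPM in DKO (11.33, SE 0.50, adjusted p = 5.16e-10). DKO replicate 1 held about as much as replicates 2 and 3 together. Diras2, a small GTPase of the Ras family, rose from 0.206, 0.161, 0.265 and 0.0631 CPM to 522, 434 and 441 CPM (11.35, adjusted p = 7.54e-13). Tyrp1, an enzyme of melanin synthesis, had 0 counts in all 4 Cre(-) libraries and 136, 78.9 and 77.8 CPM in DKO, at least 473-fold higher when Cre(-) is set at 3 counts per library. Moxd1, a copper monooxygenase, rose from 0, 0.161, 0.265 and 0.316 CPM to 68.8, 98.1 and 139 CPM (9.04, adjusted p = 2.12e-09). For all 4 genes each DKO kidney was above each Cre(-) kidney, as the choice requires.

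The other 6 of the 10 included genes known from quite different organs. Tnni3k, a kinase of heart muscle, had 1 count in all Cre(-) libraries together and 9.50, 18.0 and 18.1 CPM in DKO, a ratio of 971 (95% counting interval 174 to 38390). Gucy2c, the intestinal receptor of guanylin peptides, also had 1 count in Cre(-) and stood at 16.1, 5.53 and 5.37 CPM in DKO (ratio 583, interval 104 to 23085). Tspan10, a tetraspanin of pigment cells, had 3 counts in Cre(-) and 38.3, 15.9 and 11.5 CPM in DKO (ratio 472, interval 161 to 2292). In Gucy2c and Tspan10, replicate 1 was the highest of the DKO kidneys. Nmrk2, a nicotinamide riboside kinase whose exons overlap Atcayos, was 41.6, 29.3 and 9.37 CPM in DKO (8.60, adjusted p = 5.67e-06). Ugt1a9, a glucuronosyltransferase, was 288, 209.6 and 192 CPM in DKO and at most 0.794 CPM in Cre(-). It shares exons with other Ugt1a genes, so its reads cannot be assigned to it with certainty. Rps10-ps2, a pseudogene similar in sequence to the ribosomal protein gene Rps10, was at 0 in Cre(-) and 12.9, 3.69 and 4.73 CPM in DKO, at least 34.5-fold higher.

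Among the 10 largest falls were genes of tubular transport and metabolism. Kap, the kidney androgen-regulated protein of the proximal tubule, fell from 10513, 5686, 7716 and 9262 CPM to 181, 610.4 and 98.8 CPM (-4.81, SE 0.90, adjusted p = 0.000289). Cyp2d12, a cytochrome P450 with exons overlapping Gm27924, fell from 203, 169, 177 and 209.7 CPM to 2.44, 5.27 and 2.10 CPM (-5.87, adjusted p = 1.91e-06). Bhmt, which remethylates homocysteine, fell from 47.1, 36.9, 51.9 and 45.5 CPM to 2.68, 1.00 and 2.15 CPM (-4.53, adjusted p = 5.09e-08). In these 3 genes all DKO kidneys were below all Cre(-) kidneys, as the choice requires. Kap varied 6-fold among the DKO kidneys, with replicate 2 the highest. C8a, a chain of complement component 8, measured 102, 112, 109 and 108 CPM and 2.05, 7.43 and 3.86 CPM (-4.61, adjusted p = 6.65e-05). The organic anion transporter relatives Slc22a28 and Slc22a29 changed by -4.47 and -4.50, and Slc16a14, of the monocarboxylate transporter family, by -4.94. Ccdc170 changed by -4.61 and Nccrp1 by -5.51. Myh1, a skeletal muscle myosin that overlaps Myhas, went from 11.7, 14.5, 10.0 and 16.0 CPM to 0, 0.105 and 0.244 CPM (-6.73, adjusted p = 2.61e-06).

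Lysosomal genes are the best known targets of the MiT/TFE factors, through the motif TCACGTGA, called CLEAR, and the related M-box TCATGTGA. Promoter windows of 300 bases, 250 before the start site and 50 after it, were searched on both strands for TCACGTGA, for TCATGTGA or its reverse complement TCACATGA, and for the HIF core, which is ACGTG with GCGTG as its variant. Every TCACGTGA also holds ACGTG. The following 4 windows (RefSeq, GRCm38.p6) are shown because they hold a CLEAR or M-box match, in capitals, and belong to genes of the lysosome described next: a calcium channel, a protease, a subunit of the proton pump and a Ragulator subunit. They lie at chr8:3500269-3500568 on the + strand (Mcoln1), chr7:142387778-142388077 on the - strand (Ctsd), chr8:105566015-105566314 on the - strand (Atp6v0d1) and chr7:101905587-101905886 on the + strand (Lamtor1).
Mcoln1: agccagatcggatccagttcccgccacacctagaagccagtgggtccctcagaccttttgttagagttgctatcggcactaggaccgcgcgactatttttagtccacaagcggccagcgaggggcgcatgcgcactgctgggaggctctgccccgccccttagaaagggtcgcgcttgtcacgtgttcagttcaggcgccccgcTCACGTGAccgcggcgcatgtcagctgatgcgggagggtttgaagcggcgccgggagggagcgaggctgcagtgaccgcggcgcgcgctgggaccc
Ctsd: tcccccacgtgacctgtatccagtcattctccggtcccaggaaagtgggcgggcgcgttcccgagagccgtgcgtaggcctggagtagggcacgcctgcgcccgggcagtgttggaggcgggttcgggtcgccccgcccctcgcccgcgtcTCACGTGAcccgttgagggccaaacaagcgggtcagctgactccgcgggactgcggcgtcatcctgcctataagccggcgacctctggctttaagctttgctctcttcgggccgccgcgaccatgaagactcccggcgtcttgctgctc
Atp6v0d1: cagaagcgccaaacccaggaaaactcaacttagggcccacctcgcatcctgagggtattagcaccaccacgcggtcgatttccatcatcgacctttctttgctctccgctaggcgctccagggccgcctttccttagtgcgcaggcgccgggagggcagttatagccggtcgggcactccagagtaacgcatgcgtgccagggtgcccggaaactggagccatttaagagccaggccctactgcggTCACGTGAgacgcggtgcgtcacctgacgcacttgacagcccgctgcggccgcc
Lamtor1: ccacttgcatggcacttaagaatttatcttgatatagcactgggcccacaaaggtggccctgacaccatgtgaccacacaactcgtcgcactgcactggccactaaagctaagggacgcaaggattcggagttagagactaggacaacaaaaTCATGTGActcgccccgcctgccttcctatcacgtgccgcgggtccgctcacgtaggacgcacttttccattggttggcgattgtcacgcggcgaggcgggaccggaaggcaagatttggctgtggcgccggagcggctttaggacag

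Of the 92 tested genes in the lists of lysosomal hydrolases, lysosomal membrane proteins, V-ATPase subunits and the folliculin group, 74 had a window. Of these windows' genes, 13.5% held TCACGTGA and 10.8% the M-box, against 1.87% and 0.961% of the 12277 tested genes with a window. Among all genes higher in DKO than in Cre(-) the shares were 1.98% and 1.07%, and among all lower genes 1.90% and 0.798%. Of the 32 genes of these lists with a window that were higher in DKO, 18.8% held TCACGTGA and 6.25% the M-box, against 9.52% and 14.3% of the 42 that were not higher. Among all genes higher by a log2 fold change of at least 1 the shares were 1.14% and 1.31%. A match describes the letters of the window and was not tested as a binding site.

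The hydrolases, which break down cargo inside the lysosome, moved in both directions. Ctsl, a cysteine protease whose exons overlap Gm47123 and Gm49230, rose from 423, 379.7, 412 and 409.6 CPM to 4220, 2961 and 2599 CPM (3.00, SE 0.24, adjusted p = 9.61e-08). Ctsd, the aspartic protease with the CLEAR match shown above, rose from 497, 494, 420.4 and 477 CPM to 1534, 1124 and 1217 CPM (1.45, adjusted p = 1.82e-06). Psap, the precursor of the saposins that help degrade sphingolipids, rose from 1234, 1191, 1098 and 1013 CPM to 3451, 2947 and 2875 CPM (1.45, adjusted p = 1.18e-07). None of the 3 overlapped between the groups, and DKO replicate 1 was the highest in each. Summed over the 40 hydrolases, the level was 7333, 6613, 6495 and 6580 CPM in Cre(-) and 14949, 12177 and 11753 CPM in DKO, with Ctsl the most abundant by mean TPM. By number, 20 of the 40 genes were higher, 13 were lower and 7 did not pass, with a median of 0.24. On log2(TPM + 1) 28 were higher and 3 lower (median 0.67, against 0.45 over all genes).

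In the lysosomal membrane, Hgsnat, an acetyltransferase that acts on heparan sulfate, rose from 57.0, 57.8, 56.9 and 54.2 CPM to 791, 572 and 549 CPM (3.50, adjusted p = 1.24e-09). The structural protein gene Lamp1 rose from 1052, 966, 992 and 999 CPM to 1477, 1247 and 1189 CPM (0.38, adjusted p = 0.00177), and Cd63 rose from 765, 766, 625 and 677 CPM to 1130, 1051 and 1065 CPM (0.61, adjusted p = 7.40e-05). The channel gene Mcoln1, chosen for its promoter after its values were seen, rose from 67.3, 63.2, 61.5 and 59.5 CPM to 141, 117 and 121 CPM (1.01, adjusted p = 5.66e-07). All 4 genes were higher in each DKO kidney. Lamp2 and the sialic acid exporter Slc17a5 were the 2 lower members (-0.51 and -0.46), Slc17a5 turning positive in TPM before centring. In all, 11 of 18 were higher, 2 lower and 5 not passed, with a median of 0.39, or 0.92 in TPM, where 15 were higher and 0 lower before centring.

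The V-ATPase acidifies lysosomes, and in kidney also secretes acid from intercalated cells. Its list had 3 higher and 10 lower genes of 20 with a median of -0.35, a direction that flips to 0.21 in TPM before centring (9 higher, 3 lower) and stays at -0.24 after it (6 and 8). The 3 higher genes were Atp6v0a1, from 71.5, 62.9, 75.2 and 80.2 CPM to 264, 201 and 209 CPM (1.63, adjusted p = 1.33e-07), Atp6v1g1 (0.44) and Atp6v0d1 (0.40, adjusted p = 0.00162). The autophagy machinery had 7 higher, 9 lower and 13 not passed genes of 29, with a median of -0.10 that turned to 0.47 in TPM before centring and 0.02 after it. On TPM 21 were higher and 0 lower before centring, and 8 and 7 after it. Its cargo receptor Sqstm1 rose from 423, 418, 392 and 405 CPM to 959, 839.8 and 799 CPM (1.08, adjusted p = 3.03e-07). Gabarapl1, which conjugates to the growing membrane, fell from 1092, 819.6, 959 and 1083 CPM to 651, 663 and 614 CPM (-0.62, adjusted p = 0.0125).

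Folliculin (FLCN) and its partners FNIP1 and FNIP2 activate the Rag GTPases RagC and RagD at the lysosome, which hold TFE3 and TFEB in the cytoplasm together with the Ragulator complex. Flcn rose from 43.3, 45.0, 37.8 and 36.7 CPM to 75.5, 74.7 and 71.5 CPM (0.86, SE 0.09, adjusted p = 1.94e-06), and Fnip2 from 132, 136, 123 and 126 CPM to 255, 218 and 232 CPM (0.86, adjusted p = 2.33e-05). Rragd rose from 89.5, 94.3, 67.6 and 59.9 CPM to 233, 206 and 198 CPM (1.45, adjusted p = 5.93e-07). No DKO value of the 3 genes overlapped the Cre(-) values, and the same held for Rragc (0.81, adjusted p = 8.86e-07) and Rragb (1.03, adjusted p = 0.000223). Ragulator subunits split: Lamtor5 fell by 1.12, while Lamtor2 (-0.49) and Lamtor4 (-0.54) were lower on TMM-scaled counts and turned slightly positive in TPM before centring. Lamtor1 rose by 0.23 (adjusted p = 0.0399) and did not pass without Cre(-) replicate 2 (0.0796), Cre(-) replicate 3 (0.101) or DKO replicate 1 (0.240). Lamtor3 rose by 0.16 (adjusted p = 0.0284) and did not pass without Cre(-) replicates 1, 3 or 4 (0.0655, 0.0682 and 0.0726) or DKO replicates 1 or 3 (0.0862 and 0.0719). Mtor itself fell from 214, 225, 279.6 and 288 CPM to 104, 107 and 109.5 CPM (-1.24, adjusted p = 4.36e-07). Of the 14 genes 7 were higher, 4 lower and 3 not passed, with a median of 0.15. On log2(TPM + 1) 10 were higher and 2 lower.

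Melanosome genes and markers of TFE3 tumours made a list of 13, of which Mlana, Tyr, Slc45a2 and Oca2 had too few counts to be tested. Of the 9 tested, 5 were higher and 2 lower, with a median of 1.27, which is the same with Tyrp1 at its lower bound. Besides Gpnmb and Tyrp1, the channel gene Trpm1, which overlaps Gm44722, rose from 1.10, 1.07, 1.46 and 1.39 CPM to 477, 287 and 187 CPM (7.98, adjusted p = 8.30e-10). The melanosome transport GTPase Rab27a rose from 57.3, 45.8, 47.7 and 47.0 CPM to 132, 117 and 117 CPM (1.31, adjusted p = 3.79e-08). Both genes were higher in all DKO kidneys. Trim63, a ubiquitin ligase used as a marker of these tumours, fell from 15.2, 12.2, 11.9 and 18.6 CPM to 2.09, 2.48 and 1.61 CPM (-2.81, adjusted p = 3.63e-05). Rab38 was also lower (-0.81, adjusted p = 7.88e-05), a direction that turned positive in TPM before centring.

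**Figure D3:**
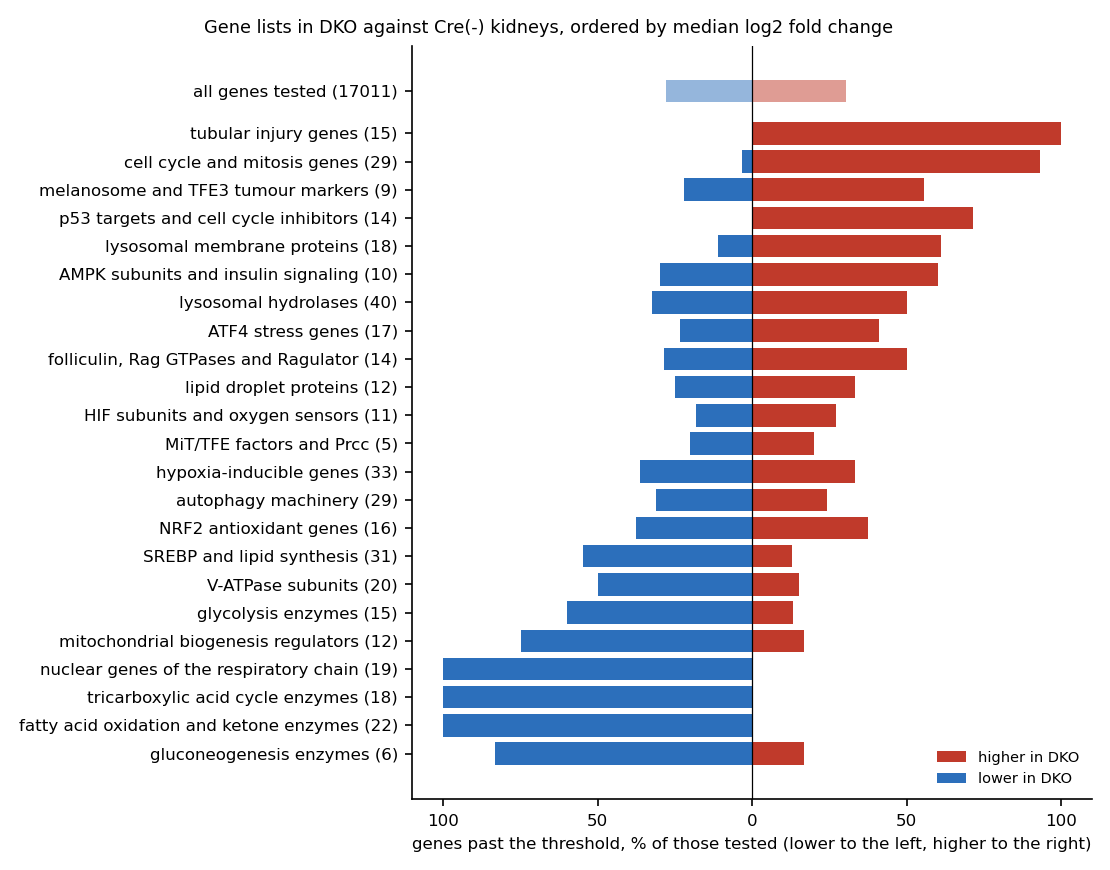
Share of the tested genes of each pathway list that were higher in DKO (red, to the right) or lower (blue, to the left) than in Cre(-), ordered by median log2 fold change, with all genes tested as the top bar. The hypoxia-inducible list has 11 higher and 12 lower genes around a median of -0.07 on TMM-scaled counts, which turns to 0.47 in TPM before centring, while the injury bar lies wholly to the right with 15 of 15 higher.

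Hypoxia-inducible genes are the direct question when both HIF alphas are deleted. The 2 windows below hold the HIF core (either variant, on either strand) in capitals, and come from a mitophagy gene and an ankyrin repeat gene that respond to low oxygen. They lie at chr7:138909457-138909756 on the - strand (Bnip3) and chr8:45999801-46000100 on the - strand (Ankrd37), from RefSeq GRCm38.p6. Of the 23 tested genes of the list with a window, 22 (95.7%) held a core motif, against 62.5% of all tested genes with a window. Some genes had several windows, with 35 for these 23 genes and 15545 for all 12277 tested genes with a window. A gene with more windows has more chances of a match, and the shares are not adjusted for it.
Bnip3: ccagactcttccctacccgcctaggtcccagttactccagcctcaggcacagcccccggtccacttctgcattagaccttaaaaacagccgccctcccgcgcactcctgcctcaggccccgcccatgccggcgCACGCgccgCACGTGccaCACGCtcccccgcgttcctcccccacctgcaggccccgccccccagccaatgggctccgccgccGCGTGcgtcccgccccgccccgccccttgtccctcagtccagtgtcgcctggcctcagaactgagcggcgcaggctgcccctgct
Ankrd37: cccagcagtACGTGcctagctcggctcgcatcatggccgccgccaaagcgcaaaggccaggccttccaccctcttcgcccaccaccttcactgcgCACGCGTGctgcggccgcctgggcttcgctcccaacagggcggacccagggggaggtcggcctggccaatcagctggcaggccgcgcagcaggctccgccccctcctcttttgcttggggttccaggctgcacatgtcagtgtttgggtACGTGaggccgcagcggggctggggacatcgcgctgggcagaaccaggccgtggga

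Of 33 tested genes of the list, 11 were higher in DKO than in Cre(-), 12 lower and 10 not passed. The median was -0.07, turning to 0.47 in TPM before centring and 0.02 after it, with 18 higher and 6 lower genes before and 11 and 10 after. Among the lower genes, Bnip3 fell from 122, 159.6, 113 and 117 CPM to 55.7, 64.0 and 65.1 CPM (-1.06, SE 0.26, adjusted p = 0.00258). Vegfa, the vascular growth factor, fell from 319, 306, 292 and 314 CPM to 159, 188 and 179.5 CPM (-0.81, adjusted p = 6.59e-05). Pgk1, a glycolytic kinase, fell from 234, 279, 174 and 198 CPM to 113, 99.0 and 99.3 CPM (-1.09, adjusted p = 0.000149). For these 3 genes all DKO kidneys were below all Cre(-) kidneys. Car9 and Car12, carbonic anhydrases, changed by -1.39 and -2.10, and Ak4, a mitochondrial adenylate kinase, by -3.07 (adjusted p = 0.000525). Ndrg1 (-1.61) and Higd1a (-0.88) were lower as well. Ldha (-0.48), Pdk1 (-0.78) and P4ha1 (-0.38) were lower on TMM-scaled counts and turned positive in TPM before centring.

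Ankrd37 itself did not pass (0.04, adjusted p = 0.949), and its sign changed in 4 of the 7 fits that leave out 1 library. A few calls of the list rested on single libraries. P4ha1 (adjusted p = 0.0310) did not pass without Cre(-) replicate 1 (0.0531), Cre(-) replicate 2 (0.0567), Cre(-) replicate 3 (0.0800), DKO replicate 1 (0.0911) or DKO replicate 3 (0.0885). Angptl4, an inhibitor of lipoprotein lipase, changed by -1.43 (adjusted p = 0.0262) and did not pass without Cre(-) replicate 4 (0.0746), DKO replicate 1 (0.112) or DKO replicate 2 (0.105). Erythropoietin RNA (Epo) was 0.411, 0.428, 0.397 and 0.442 CPM in Cre(-) and 0.0487, 0.0527 and 0.0488 CPM in DKO, too few counts for the test. Each DKO library was under its 3-count floor and each Cre(-) library above its own, though the exons of Epo overlap those of Gnb2.

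The higher genes of the same list included the glucose-trapping hexokinase Hk2, from 2.47, 1.23, 1.72 and 1.01 CPM to 226, 139.8 and 120.1 CPM (6.67, SE 0.50, adjusted p = 5.86e-08). Lox, which crosslinks collagen, rose from 4.25, 5.19, 3.05 and 4.86 CPM to 26.8, 38.7 and 42.9 CPM (3.05, adjusted p = 9.79e-06). Both genes were higher in all DKO kidneys than in any Cre(-) kidney. Ccnd1 passed as higher (adjusted p = 1.98e-05), and Bhlhe40, Tgfa, Pdgfb, Cxcr4, Ddit4 and Plod2 rose by 1.01, 1.49, 1.70, 1.67, 1.23 and 0.50. Pfkfb3, the kinase that makes the activator of phosphofructokinase, rose by 0.53 (adjusted p = 0.0205) and did not pass without Cre(-) replicate 1 (0.0566), DKO replicate 1 (0.0674) or DKO replicate 3 (0.0882).

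Glycolysis enzymes were lower in 9 of 15 genes and higher in 2, with a median of -0.54 that moved to 0.02 in TPM before centring (6 higher, 4 lower) and -0.43 after it. The 2 higher genes were Eno2, the neuronal enolase, from 2.67, 1.77, 1.79 and 2.40 CPM to 30.9, 18.9 and 19.0 CPM (3.42, adjusted p = 9.87e-08), and the platelet phosphofructokinase Pfkp, from 116, 109, 117 and 107 CPM to 236, 197 and 199 CPM (0.91, adjusted p = 1.05e-05). Neither of these enzymes overlapped between the groups. Gapdh (-0.84) and Ldhb (-1.42) were lower too. The gluconeogenic enzymes, which the proximal tubule uses to make glucose, fell in 5 of 6 genes with a median of -2.57. Pck1 dropped from 2396, 4987, 2403 and 2900 CPM to 131, 227 and 259.8 CPM (-3.94, adjusted p = 0.000173), and its mitochondrial relative Pck2 was the 1 higher gene, from 19.7, 21.5, 17.8 and 21.0 CPM to 29.4, 25.5 and 25.9 CPM (0.43, adjusted p = 0.000487).

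Next come enzymes of mitochondrial energy metabolism. All 18 enzymes of the tricarboxylic acid cycle, all 19 nuclear genes of the respiratory chain and all 22 genes of fatty acid oxidation and ketone metabolism were lower, with medians of -1.17, -1.03 and -1.47 against 0.02 over all genes. In TPM the medians were -0.63, -0.48 and -0.88 against 0.45. Idh2, a mitochondrial isocitrate dehydrogenase, fell from 508, 444, 533 and 589.7 CPM to 226, 233 and 233 CPM (-1.17, adjusted p = 7.24e-07). Atp5b, the catalytic beta subunit of ATP synthase, fell from 2744, 2667, 2619 and 2516 CPM to 1187, 1233 and 1131 CPM (-1.16, adjusted p = 8.80e-08). Acadm, which begins the oxidation of medium-chain fatty acids, fell from 1924, 1599, 1424 and 1341 CPM to 199, 297 and 256 CPM (-2.65, adjusted p = 6.18e-08). All 3 were lower in every DKO kidney. Regulators of mitochondrial biogenesis were lower in 9 of 12 genes, Esrra among them (-1.03, adjusted p = 1.24e-07), with a median of -0.67, or -0.04 in TPM, where 4 were lower and 3 higher before centring. The 2 higher regulators were Pprc1 (1.04) and Nrf1 (0.29).

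Lipid genes were mixed. The SREBP and lipid synthesis list had 4 higher and 17 lower genes of 31, with a median of -0.27 that flips to 0.26 in TPM before centring (12 higher, 11 lower) and returns to -0.19 after it. Acacb, the mitochondrial acetyl-CoA carboxylase, rose from 79.5, 72.7, 71.3 and 63.0 CPM to 256, 176 and 205 CPM (1.57, adjusted p = 4.27e-07), and Cyp51, of cholesterol synthesis, fell from 471, 394, 439 and 394 CPM to 81.3, 121 and 66.7 CPM (-2.24, adjusted p = 1.01e-05). Neither overlapped between the groups. Lipid droplet proteins were higher in 4 and lower in 3 of 12 (median 0.03), with the coat protein gene Plin2 at 48.8, 63.8, 37.6 and 46.7 CPM in Cre(-) and 67.2, 64.7 and 80.9 CPM in DKO (0.53, adjusted p = 0.0119, but 0.0645 without DKO replicate 3). The AMPK and insulin signaling list had 6 higher and 3 lower genes of 10 (median 0.30). In it the adaptor Appl2 rose from 96.0, 75.5, 75.3 and 80.0 CPM to 263, 231 and 241 CPM (1.58, adjusted p = 2.69e-07), while the insulin receptor gene Insr (-0.80), Irs1 (-1.35) and the AMPK catalytic subunit Prkaa2 (-1.30) were lower.

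Genes of tubular injury, which damaged epithelium switches on, were higher in 15 of 15, with a median of 2.77 (2.65 on log2(TPM + 1), 2.20 after centring). Spp1, or osteopontin, rose from 1830, 1740, 1545 and 1561 CPM to 4204, 4073 and 4978 CPM (1.40, adjusted p = 8.82e-07), with exons that overlap Gm42793. Lgals3, a galectin, rose from 38.9, 36.0, 27.3 and 35.9 CPM to 365, 193 and 187 CPM (2.85, adjusted p = 5.06e-07). The injury marker KIM-1 (Havcr1, named after its values were seen) rose from 2.26, 0.803, 1.19 and 0.758 CPM to 34.8, 54.4 and 69.4 CPM (5.42, adjusted p = 7.16e-08). In all 3 genes the DKO kidneys stood above the Cre(-) kidneys. Cell cycle genes were higher in 27 of 29 and lower in 1, with a median of 1.87, or 1.45 on log2(TPM + 1) and 1.00 after centring. The lower gene was the thymidylate synthase Tyms (-0.56, adjusted p = 0.00185), which turned positive in TPM before centring. The replication clamp Pcna went from 33.8, 36.4, 34.1 and 33.0 CPM to 47.2, 50.9 and 47.3 CPM (0.50, adjusted p = 6.10e-06). Targets of p53 and cell cycle inhibitors were higher in 10 of 14, with a median of 0.86. Bax, which permeabilises mitochondria, rose from 29.0, 26.1, 25.2 and 26.1 CPM to 55.5, 47.1 and 46.0 CPM (0.90, adjusted p = 6.50e-07).

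Stress lists leaned less to 1 side. NRF2 antioxidant genes were higher in 6 and lower in 6 of 16, with a median of -0.12 that turned to 0.37 in TPM before centring (9 higher, 1 lower). ATF4 stress genes were higher in 7 of 17, or 4 without Cre(-) replicate 1 or without DKO replicate 1, and lower in 4, with a median of 0.21. The lower ones included the serine hydroxymethyltransferase Shmt2, from 203, 191, 163 and 202 CPM to 49.2, 59.8 and 51.5 CPM (-1.83, adjusted p = 6.43e-08), and the amino acid transporter chain Slc3a2, from 335, 272, 282 and 272 CPM to 189, 187 and 164 CPM (-0.69, adjusted p = 2.15e-05).

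**Figure D4:**
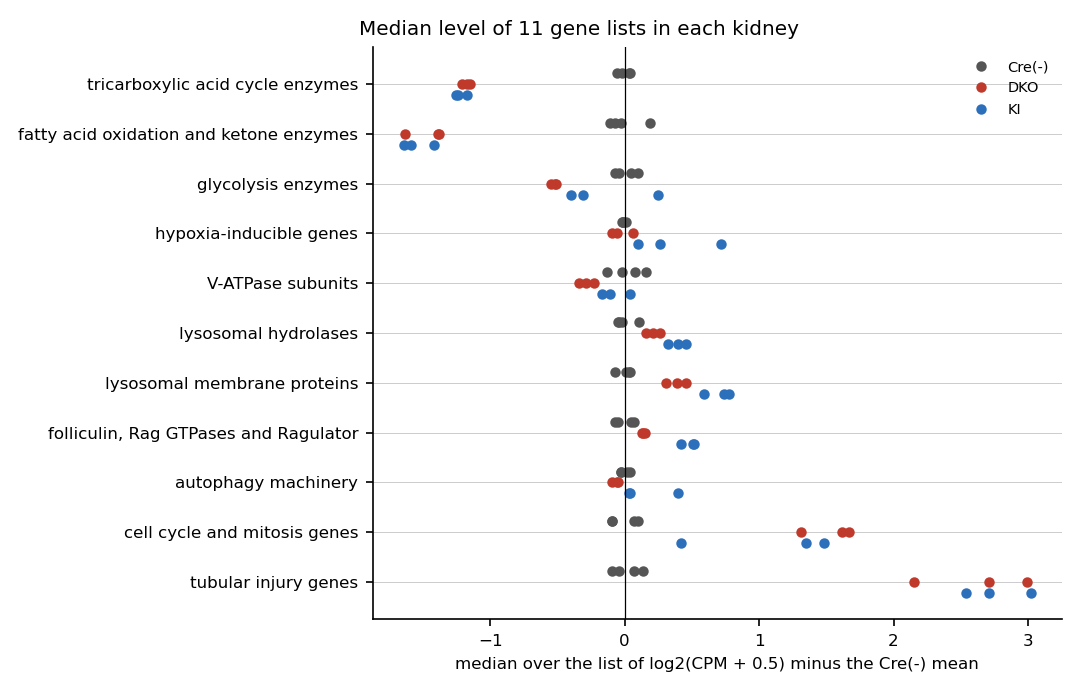
Median over the genes of 11 lists of log2(CPM + 0.5) minus its Cre(-) mean, 1 point a kidney, for Cre(-), DKO and KI. On this TMM scale the DKO kidneys sit below KI for the glycolysis and lysosomal membrane lists and far above Cre(-) for the cell cycle and injury lists, and the hypoxia-inducible medians lie near 0 in DKO, a sign that depends on the scaling.

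Markers of the cell types of the kidney changed as well, and how far they account for the results above was not tested. Proximal tubule markers were lower in 18 of 18, with a median of -2.84, and summed to 34153, 27934, 29889 and 31081 CPM in Cre(-) and 3213, 5047 and 3879 CPM in DKO, Kap being the most abundant by mean TPM. The phosphate transporter Slc34a1 fell from 3812, 3272, 3330 and 3439 CPM to 231, 430.5 and 325 CPM (-3.40, adjusted p = 1.55e-05). Markers of the distal convoluted tubule fell in 6 of 6 (median -2.17), of intercalated cells in 9 of 10 (-1.82) and of podocytes in 7 of 8 (-1.46). Podocytes are not known as targets of KSP-Cre. How far Cre acted in each of the other segments, the proximal tubule among them, was not measured. Principal cell markers had 1 higher gene, the water channel Aqp3 (0.89), 2 lower genes, Hsd11b2 (-1.25) and Scnn1a (-1.16), and 7 of 10 not passed, with a median of -0.59. In the thick ascending limb 5 of 6 were lower (median -1.92). Its most abundant marker by mean TPM, uromodulin (Umod), was 3647, 3553, 3948 and 2906 CPM in Cre(-) and 2256, 3630 and 3146 CPM in DKO, overlapping and not passed (-0.22, adjusted p = 0.486), with a sign that changes in TPM before centring. Egf, made by the same segment, fell from 2004, 2022, 2385 and 1869 CPM to 69.2, 171 and 107 CPM (-4.16, adjusted p = 0.000371).

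**Figure D5:**
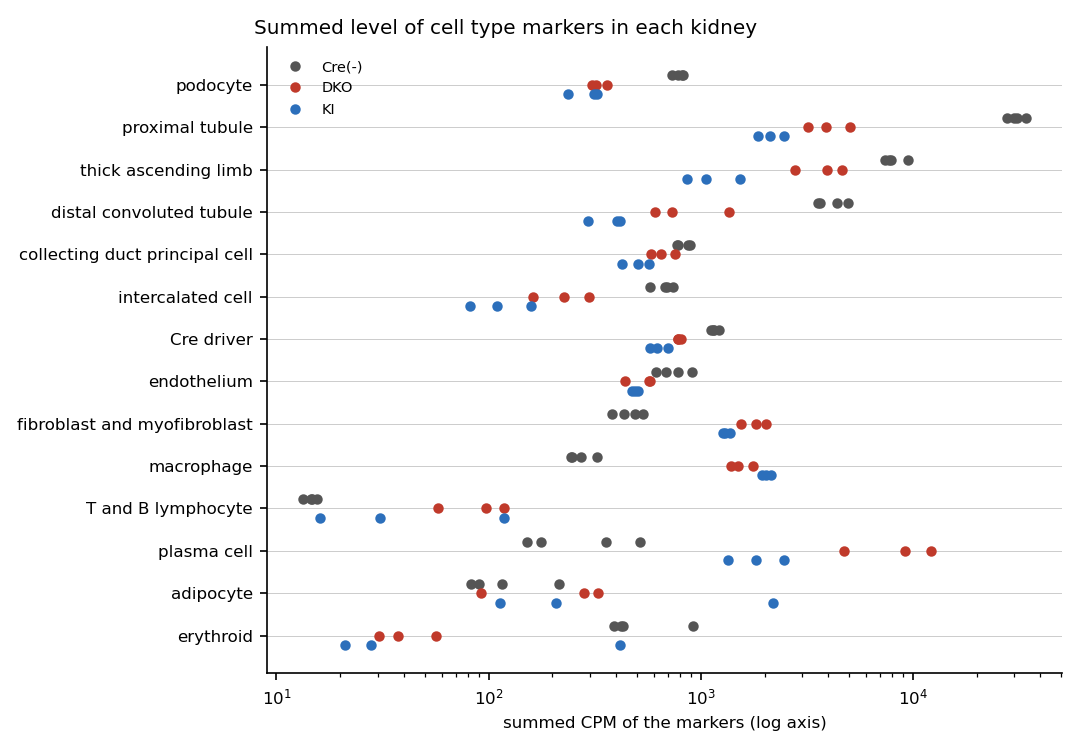
Summed CPM of the genes of 14 marker lists on a log axis, 1 point a library, for Cre(-), DKO and KI. Proximal tubule sums lie at 27934 to 34153 CPM in Cre(-) and 3213 to 5047 CPM in DKO, while plasma cell sums lie at 151 to 517 CPM in Cre(-) and 4731 to 12168 CPM in DKO.

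Markers of macrophages, lymphocytes and plasma cells were higher in DKO. Macrophage markers rose in 15 of 16 (median 2.46), summing to 324, 245, 247 and 273 CPM in Cre(-) and 1764, 1493 and 1390 CPM in DKO. The most abundant by mean TPM was Cd68, a lysosomal glycoprotein that cells with many lysosomes can also express, from 5.76, 4.55, 3.24 and 5.49 CPM to 577, 351 and 349 CPM (6.48, adjusted p = 9.55e-11). Complement gene C1qa, which tubular cells are not known for, rose from 25.8, 18.3, 21.2 and 27.5 CPM to 143, 138 and 122 CPM (2.54, adjusted p = 2.06e-08), so the 2 markers differed in size of change, with every DKO kidney higher in both. T and B lymphocyte markers rose in 12 of 13 (median 2.51, or 1.94 on log2(TPM + 1) with 13 higher and 1.49 after centring with 10), with sums of 14.7, 15.6, 14.5 and 13.4 CPM in Cre(-) and 96.8, 118 and 57.5 CPM in DKO. Plasma cell markers rose in 5 of 5 (median 3.37), with sums of 151, 517, 356 and 177 CPM in Cre(-) and 9171, 12168 and 4731 CPM in DKO. The kappa light chain gene Igkc went from 116, 270.3, 218 and 143 CPM to 5179, 5205 and 1948 CPM (4.46, adjusted p = 9.87e-06), lowest among DKO kidneys in replicate 3. Fibroblast and myofibroblast markers rose in 11 of 13 (median 1.23), summing to 535, 381, 434 and 490.0 CPM and 1542, 2027 and 1818 CPM.

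The remaining marker lists were smaller in level or mixed. Endothelial markers fell in 6 of 10 with a median of -0.50, which flips to 0.04 in TPM before centring (3 higher, 1 lower) and is -0.41 after it. Erythroid markers fell in 5 of 5 (median -3.68), from sums of 391, 429, 423 and 916 CPM in Cre(-) to 37.6, 30.5 and 56.4 CPM in DKO, with Cre(-) replicate 4 far above the other kidneys. Hbb-bs, the most abundant of them, was 153, 187, 182 and 390.3 CPM and 17.5, 12.5 and 23.2 CPM (-3.68, adjusted p = 0.00287). Of 10 adipocyte markers 0 passed in edgeR's test and 0 in DESeq2's, while 1 reached an unadjusted p under 0.05. Without Cre(-) replicate 1 or without DKO replicate 2, edgeR passed 1. On log2(TPM + 1) 2 were higher and 0 lower, and after centring 0 were higher and 1 lower. The adipocyte sums were 215, 82.8, 90.0 and 116 CPM in Cre(-) and 328, 92.0 and 282 CPM in DKO. Of 3 neutrophil markers tested Cxcr2 was lower (-1.35, adjusted p = 0.000458), and Ly6g and Camp were under 3 counts in every Cre(-) and DKO library. Of 3 adrenal markers tested Cyp21a1 passed, with 1 count in Cre(-) and 0.731, 0.316 and 0.927 CPM in DKO (ratio 42.8, interval 7.26 to 1733). Cyp11b1 and Cyp11b2 were under 3 counts in every Cre(-) and DKO library. The sex-linked list had 2 tested genes, of which Kdm5d, annotated on the Y chromosome, was lower (-0.59, adjusted p = 0.0141, 0.0535 without DKO replicate 3), a sign that turned in TPM before centring. Ddx3y and Eif2s3y, annotated there too, were under 3 counts in every Cre(-) and DKO library, so the Kdm5d value cannot plainly be read as expression of a Y-linked gene.

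By their labels, DKO and KI kidneys both carry the fusion allele and Cre, and only DKO kidneys carry the floxed HIF alphas. Between the 2 groups neither Hif1a (-0.19, adjusted p = 0.395) nor Epas1 (-0.18, adjusted p = 0.208) passed, in whole-gene counts of all cells, which do not test the floxed exons. KI and DKO were compared with the same 4 Cre(-) kidneys, so their 2 sets of changes share controls and are given side by side, and the difference was tested directly as DKO against KI. In KI against Cre(-), 5381 genes were higher and 4981 lower. In DKO against KI, 2164 genes (12.7%) passed, 1111 (6.53%) higher and 1053 (6.19%) lower, with a median of 0.00. These counts depended on single kidneys. Without DKO replicate 2 they were 369 and 353, without DKO replicate 3 they were 407 and 383, without KI replicate 3 they were 423 and 492, and without KI replicate 2 the higher genes were 706. Higher genes made up 51.3% of those that passed, 69.9% on log2(TPM + 1) and 49.6% after centring. Some marker sums differed widely among the KI kidneys. In replicate order, adipocyte markers summed to 113, 2187 and 207 CPM, and lymphocyte markers to 30.6, 118 and 16.1 CPM. Erythroid markers summed to 21.0, 27.9 and 416 CPM.

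Of the genes described above, 8 are given here that were chosen because they stood between Cre(-) and KI. Their order is therefore no result, and the share of all genes tested with this order was not counted. Gpnmb was 13009, 14211 and 15629 CPM in KI, above every DKO value (DKO against KI -1.80, SE 0.37, adjusted p = 0.00824). Ctsl reached 6580, 7659 and 7933 CPM in KI (-1.18, adjusted p = 0.00883), and Diras2 818, 949.9 and 902 CPM (-0.93, adjusted p = 0.00489). For each of these genes the 3 DKO kidneys lay above the 4 Cre(-) and below the 3 KI kidneys. The same order held for Flcn, at 96.5, 101 and 110.4 CPM in KI (-0.48, adjusted p = 0.00905), for Hgsnat (adjusted p = 0.00390), Psap (-0.77, adjusted p = 0.00261), Sqstm1 (-0.53, adjusted p = 0.00649) and Atp6v0a1 (-0.89, adjusted p = 0.00255). All 8 passed without any 1 of the 6 libraries, as did 28 of the 56 named genes that passed against KI. Ctsd, Cd63, Eno2 and Rragd were also higher than in Cre(-) and lower than in KI. They did not pass against KI without DKO replicate 2 (adjusted p = 0.0693, 0.0536, 0.0580 and 0.0913). Vhl, at 41.0, 45.4 and 51.8 CPM in KI, was also lower in DKO (-0.63, adjusted p = 0.00696).

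By list, 7 of 20 V-ATPase subunits were lower in DKO than in KI, 7 of 18 lysosomal membrane genes, 3 of 9 melanosome genes and 14 of 40 hydrolases, against 6.19% of all genes. The hydrolases numbered 7 without DKO replicate 2 or DKO replicate 3. Of the folliculin list 8 of 14 were lower, 4 without DKO replicate 2 or DKO replicate 3 and 5 without KI replicate 2 or KI replicate 3. On log2(TPM + 1) the lower genes were 6, 4, 2, 8 and 3 for V-ATPase, lysosomal membrane, melanosome, hydrolase and folliculin lists, and after centring 7, 7, 3, 14 and 7. Medians of DKO against KI on TMM-scaled counts were -0.21, -0.25, -0.51, -0.24 and -0.37 in the order given. Such shares were not particular to these lists. Lower than in KI were also 6 of 17 ATF4 stress genes, 4 of 12 lipid droplet genes and 3 of 10 AMPK and insulin genes. The same held for 8 of 29 autophagy genes (4 without DKO replicate 2 or DKO replicate 3) and 4 of 16 NRF2 genes (2 without DKO replicate 2). Of 18 tricarboxylic acid cycle and 29 cell cycle genes 0 were lower. Summed hydrolases were 20538, 20880 and 23066 CPM in KI, and the DKO sums given above lie between these and the Cre(-) sums. Among all genes lower in DKO than in KI, 3.94% of those with a window held TCACGTGA and 2.54% the M-box, against 1.87% and 0.961% of all tested genes and 0.872% and 0.747% of genes higher in DKO than in KI.

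Hypoxia-inducible genes had a median of 0.37 in KI against Cre(-) and -0.07 in DKO against Cre(-). Against KI, 6.53% of all genes tested were higher in DKO and 6.19% lower. Of the 33 hypoxia-inducible genes 10 were lower in DKO than in KI. That count was 6 without DKO replicate 1, 1 without DKO replicate 2, 0 without DKO replicate 3 and 2 without KI replicate 3. On log2(TPM + 1) 5 were lower. The 2 higher genes became 1 without KI replicate 2 and 0 without DKO replicate 2, DKO replicate 3 or KI replicate 3, and 1 was higher on log2(TPM + 1). KI replicate 3 stood apart from the other KI kidneys in this list, as in the erythroid sums given above. It was also the lowest KI kidney in summed cell cycle genes (394, 368 and 220.0 CPM). Bnip3 was 62.2, 118 and 186 CPM in KI and Vegfa 193, 215 and 315 CPM, with replicate 3 the highest in both. Hk2, high in DKO, was 477, 417 and 355 CPM in KI (-1.36, adjusted p = 0.0414), and this difference did not pass without DKO replicate 2 (0.148), DKO replicate 3 (0.153), KI replicate 1 (0.0845), KI replicate 2 (0.0779) or KI replicate 3 (0.0753). Glycolysis enzymes had medians of -0.09 in KI and -0.54 in DKO, and 6 of 15 were lower than in KI, 2 without DKO replicate 2, 0 without DKO replicate 3 and 2 without KI replicate 3.

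Part of the tubular and fibroblast markers were higher in DKO than in KI. Over all genes tested, 6.53% were higher in DKO than in KI. Umod was 1193, 657 and 833 CPM in KI, below every DKO value (1.75, adjusted p = 0.00266), and Cldn10, a claudin of the thick ascending limb, was 164, 178, 184 and 180.4 CPM in Cre(-), 37.3, 48.0 and 50.9 CPM in DKO and 22.9, 12.5 and 20.6 CPM in KI (1.28, adjusted p = 0.00429). For thick ascending limb markers 5 of 6 were higher in DKO than in KI (median 1.48), but 2 without DKO replicate 2 or KI replicate 3 and 3 without DKO replicate 3 or KI replicate 2. Proximal tubule markers were higher in 8 of 18 (median 0.92), a count that fell to 0 without DKO replicate 2, 1 without KI replicate 2, 3 without DKO replicate 3 or KI replicate 3 and 5 without KI replicate 1. Fibroblast markers were higher in 7 of 13 (median 0.65), 4 without DKO replicate 2. Plasma cell sums were 2465, 1833 and 1348 CPM in KI, below all DKO sums. By gene 2 of 5 were higher in DKO than in KI (median 2.22), 1 without DKO replicate 1 and 0 without DKO replicate 2 or KI replicate 3, and 3 on log2(TPM + 1).

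Other genes differed from KI and from Cre(-). Kap, lowered in DKO, was 19.3, 18.5 and 13.2 CPM in KI (4.13, adjusted p = 0.0101, but 0.0502 without DKO replicate 2). Lrmda, a leucine-rich repeat gene named for melanocyte differentiation, was 4.39, 5.51, 4.37 and 4.61 CPM in Cre(-), 7.30, 7.16 and 7.47 CPM in KI and only 0.390, 0.263 and 0.537 CPM in DKO. It was lower in DKO than in both references (-3.55, adjusted p = 1.73e-07, and -4.18, adjusted p = 5.65e-06). Rnase1, a secreted ribonuclease, was 12.0, 9.42 and 8.73 CPM in KI and 1.27, 0.790 and 0.586 CPM in DKO (-3.50, adjusted p = 0.00501), no DKO kidney reaching any KI kidney. Its difference from Cre(-) (1.87, adjusted p = 0.0390) did not pass without Cre(-) replicate 1 (0.0840), Cre(-) replicate 2 (0.0865), DKO replicate 1 (0.144) or DKO replicate 2 (0.0589). Moxd1 and Tnni3k, near absent in Cre(-), were lower in KI than in DKO, at 57.1, 28.5 and 24.2 CPM (1.48, adjusted p = 0.00737) and 5.12, 3.66 and 4.05 CPM (1.83, adjusted p = 0.00173). Immunoglobulin variable genes, which share sequence, were among the higher genes: Igkv13-85 was 9.55, 3.06 and 1.03 CPM in DKO and had 2 counts in KI (ratio 123, 95% counting interval 33.6 to 1018). Single kidneys held most of some of them, as DKO replicate 1 did for Igkv4-58 at 16.6, 0.580 and 0.488 CPM, which did not pass against Cre(-) without it (adjusted p = 0.648).

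Since Cre(-) replicates 1 and 2 carry HIF1a f/f and 3 and 4 do not, the pairs were compared with each other. Of 17011 genes 7 (0.0411%) passed, 5 (0.0294%) higher with the flox allele and 2 (0.0118%) lower, by edgeR's test, against 266 by DESeq2. Gm3375, named after its values were seen, passed in this comparison and in DKO against Cre(-). It was 0.206, 0.107, 13.9 and 16.1 CPM in Cre(-) and at most 0.0527 CPM in DKO, so that the DKO kidneys, which carry the flox allele, resembled the flox pair.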

How the data were processed

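The deposited table holds an expected count and a TPM value per transcript and library. The authors trimmed reads of polyA-selected stranded mRNA libraries with Trim Galore 0.6.6 and cutadapt 2.5, aligned them with STAR 2.7.9a, and estimated the expected counts with RSEM. The TPM values were likewise made by the authors with RSEM, from the same alignments. Their methods give the human assembly hg38 for alignment and an annotation of hg38 or GRCm38 for quantification. The table lists mouse transcripts, of which 116770 of 119353 (97.8%) match GENCODE M21. Libraries were assigned to groups by sample title.

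Expected counts were summed per gene and rounded, genes with few counts were removed (filterByExpr, minimum count 10), and 1 model of all 17 libraries was fitted with TMM scaling by the quasi-likelihood F-test of edgeR 4.0.16 in R 4.3.3, with Benjamini-Hochberg adjustment and a threshold of 0.05. Tables and figures used Python 3.11.15, pandas 2.3.3 and matplotlib 3.10.9.

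Genes are named by a fixed rule: the 6 genes of the model and its marker; in each direction the 10 largest changes from Cre(-), and the 5 largest from KI that also passed against Cre(-), with at least 1 TPM and no overlap, without predicted genes; of each list the 3 most abundant by TPM and any minority of 5 or fewer; and the HIF, hypoxia-inducible, folliculin and MiT/TFE lists. The rule selects 229 genes, and the text names only part of them. List members with too few counts to test were named after their values were seen. The 23 pathway lists (421 of 421 symbols matched) and 17 marker lists (146 of 147) were chosen with earlier results of these data known.

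Alternatives were DESeq2 1.42.0 (test, size factors), limma 3.58.1 on log2(TPM + 1) and log2(TPM + 0.1), no count filter, a fit of the 2 groups only, replicate number as a block, a log2 fold change of at least 1, libraries without mitochondrially encoded genes, controls of 1 genotype, and leaving out each library. Centring TPM on the median of all genes was chosen after seeing the data. The Hif1a KO and Hif2a KO libraries entered the fit and are described only in the Hif1a transcript shares.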

Additional observations from a re-analysis of the deposited data

Results flagged for a closer look

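In 4 of 51 groups of Cre(-) values examined, 1 kidney lay far from the other 3 by Dixon's criterion, where chance gives about 1 in 20 groups. Summed erythroid markers were 916 CPM in Cre(-) replicate 4, against 391, 429 and 423 CPM in replicates 1 to 3. The other cases are genes with few counts in Cre(-) kidneys. In 2 of them a single count over the 4 kidneys meets the criterion by construction, so the chance rate does not apply to these 2. Gucy2c had 1 count in Cre(-) replicate 3 (0.0662 CPM) and 0 in the other replicates. Tnni3k had 1 count in Cre(-) replicate 4 (0.0631 CPM) and 0 in the other replicates. Ighv9-1, an immunoglobulin heavy chain variable gene, was 0.803 CPM in Cre(-) replicate 2 and at most 0.0662 CPM in the others.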

How the results depend on the processing

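The counts of DKO against Cre(-), 5167 higher and 4749 lower, stayed within 1.5 times under DESeq2's test, its size factors, no count filter, a fit of the 2 groups only, either control genotype, libraries without mitochondrially encoded genes, and leaving out each library (4544 to 4969 higher, 4161 to 4642 lower). With replicate number as a replicate block they were 4946 and 4522, and the numbers do not pair kidneys (r = 0.029, 0.034 and 0.013 between DKO and Cre(-) kidneys of the same number). TPM moved the counts to 10008 higher and 1845 lower on log2(TPM + 1), and to 10087 and 1792 on log2(TPM + 0.1). Over all genes the median rose from 0.02 to 0.45 and 0.56. Centred on that median, an alternative chosen after seeing the data, TPM gave 4669 and 4785. Requiring a log2 fold change of at least 1 left 2590 and 1842, fewer by its construction.

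Of 130 genes named for DKO against Cre(-), 74 kept their direction and side of the threshold in all alternatives and 14 changed direction in at least 1. On log2(TPM + 1) and log2(TPM + 0.1), in that order, these became positive: Epas1 0.04 and 0.05, Kdm5d 0.11 and 0.15, Lamtor2 0.06 and 0.06, Lamtor4 0.02 and 0.02, Ldha 0.09 and 0.09, P4ha1 0.22 and 0.22, Pdk1 0.17 and 0.17, Prcc 0.51 and 0.53, Rab38 0.08 and 0.09, Slc17a5 0.10 and 0.11, Tfec 0.20 and 0.21, Tyms 0.18 and 0.19, Umod 0.30 and 0.30. On log2(TPM + 1) all but Prcc lie below the median of all genes, and after centring only Prcc of these was positive (0.06). Prcc was 0.00 without the count filter and -0.05 to 0.01 when 1 library was left out. Ankrd37 was -0.15 against the Cre(-) kidneys with HIF1a f/f and -0.18 to 0.42 when 1 library was left out. The cause was not tested. Of the 124 named genes that passed, 114 passed in each fit that left out 1 library.

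DKO against KI, with 1111 higher and 1053 lower genes, depended more on the processing. Leaving out 1 library gave 369 to 1165 higher and 353 to 1126 lower genes, where the lowest counts came without DKO replicate 2. A replicate block gave 914 and 798. A fit of the 2 groups only gave 526 and 502, with 6 libraries in place of 17 to estimate variation. Lower genes were 520 on log2(TPM + 1) and 463 on log2(TPM + 0.1), and the cause was not tested. A log2 fold change of at least 1 left 459 and 230. Of 56 named genes that passed, 28 passed in each fit that left out 1 library. Between the Cre(-) genotypes, 2 kidneys each, DESeq2 gave 266 genes where edgeR gave 7, and the cause was not tested.

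Depth limits genes near 3 counts in a library, 0.146 to 0.206 CPM in the Cre(-) and DKO libraries. Below it, single counts set the values, and 18960 genes were not tested.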

Other observations

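The transcript of Hif1a that starts farthest upstream (ENSMUST00000110461) took between 23.2% and 50.5% of the gene's estimated counts in the 9 libraries whose labels give HIF1a f/f, and less in each of the 8 libraries without that allele, where the lowest share was 12.3%. In the Cre(-) kidneys the shares were 48.4% and 50.5% with the allele and 16.0% and 12.3% without it. This was noticed after the values were seen and is given as a description.

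The design sets limits on all results. Each group has 3 or 4 kidneys, and library numbers do not overlap between Cre(-), DKO and KI. Without a group that lacks both HIF alphas and the fusion, an effect of the HIF deletions alone cannot be separated from their effect on the fusion's changes. The labels give no sex and no stage of any lesion. Whole-kidney RNA mixes changes in cell composition with changes inside cells, and cells without KSP-Cre keep both HIF alpha genes. Gene counts do not show recombination of the floxed exons, the fusion transcript or any protein.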
